A study of Tursiops truncatus with 17 samples.

Results

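RBM39 and the SR splicing factors were followed as transcripts in the cerebral cortex of 17 bottlenose dolphins (Tursiops truncatus). The genes sought were SRSF1, SRSF2, SRSF3, SRSF4, SRSF5, SRSF6, SRSF7, SRSF10, SRSF11 and RBM39. A gene was found where either name given for a row of the expression table matched its symbol in capitals. That gave 1 row each for 9 of the 10, out of 21265 genes listed, and SRSF2 was not analysed here. The set was chosen by its season differences in these same 17 libraries, so its season values below are a description and carry no test.

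Bulk messenger RNA was sequenced from 9 dolphins collected in a bloom season and 8 collected in a non-bloom season, and season is the comparison the study made. All animals carry the label WT, and the source names give each library a dolphin of its own. The tissue of both groups was frozen necropsy material from an archive, so both seasons share post-mortem sampling and storage. No sex, age, date, toxin level or batch was given with the samples. A batch and the season cannot be told apart where they coincided. Libraries are called by season and a number, and the number pairs nothing.

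SR proteins bind RNA through an RNA recognition motif and carry a tail rich in arginine and serine. They sit on exonic enhancers and help the U1 particle and U2AF find the ends of an exon. Kinases of the SRPK family phosphorylate that tail in the cytoplasm and CLK kinases do so in the nucleus, which sets where SR proteins lie and how they act. RBM39 (CAPER alpha) resembles the large subunit of U2AF, works in recognition of the 3′ splice site, and is the target of aryl sulfonamide degraders that act through DCAF15. Many SR genes make an alternative transcript with a premature stop codon that is removed by nonsense-mediated decay. The values here are totals for a gene and do not separate such transcripts.

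Each value is the authors' normalised level: reads of the gene as CPM, with the size of the library scaled by the trimmed mean of M values. Libraries held between 7680050 and 12572653 reads in the bloom season and between 12346713 and 15635292 in the non-bloom season. Bloom 9, bloom 5 and bloom 6 stood apart from the rest: transcripts of the mitochondrial genome took 77.2%, 57.0% and 33.5% of their reads, against 1.47% to 19.5% in the other 6 bloom libraries and 9.68% to 22.1% in the non-bloom libraries. All 11 pan-neuronal markers found were above 0 in every library. Their summed level ran from 2526 to 10862 in bloom libraries and from 8853 to 14505 in non-bloom libraries. The summed level of the 11 oligodendrocyte markers ran from 4523 to 19259 in bloom libraries and from 1721 to 8187 in non-bloom libraries. The 11 astrocyte markers ran from 581 to 10857 in bloom and from 534 to 2645 in non-bloom libraries, and the 11 endothelial markers from 193 to 3016 and from 347 to 957, with CDH5 at 0 in some library. The 9 microglia markers found summed to between 4.90 and 37.0 in bloom and between 4.97 and 300.4 in non-bloom libraries, and 7 of them (AIF1, CX3CR1, P2RY12, C1QB, TREM2, ITGAM and CD68) were at 0 in at least 1 library. In bulk tissue, fewer cells of a type and less RNA per cell cannot be told apart.

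Among the 9 genes, RBM39, SRSF4 and SRSF11 stood higher in bloom cortex, SRSF5 stood lower, and SRSF1, SRSF3, SRSF6, SRSF7 and SRSF10 lay within the spread of the animals. The log2 differences, bloom minus non-bloom on the log2(value + 1) scale, ran from -0.39 for SRSF5 to 0.54 for RBM39. Their median was 0.031, with 5 above 0 and 4 below, beside a median of -0.0034 over the 13552 genes tested. All 9 passed the filter on low counts. RBM39 and SRSF4 were the 2 of the 9 that passed an adjusted p of 0.05 in the fit across all genes (limma, Benjamini-Hochberg), and edgeR on the recovered reads called the same 2. In the limma fit 9.16% of all genes were called, 4.47% as higher and 4.69% as lower in bloom, and in edgeR 8.29% were called, 6.10% as higher and 2.19% as lower. As the set was chosen with this contrast in view, nothing is read from that count.

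**Figure D1:**
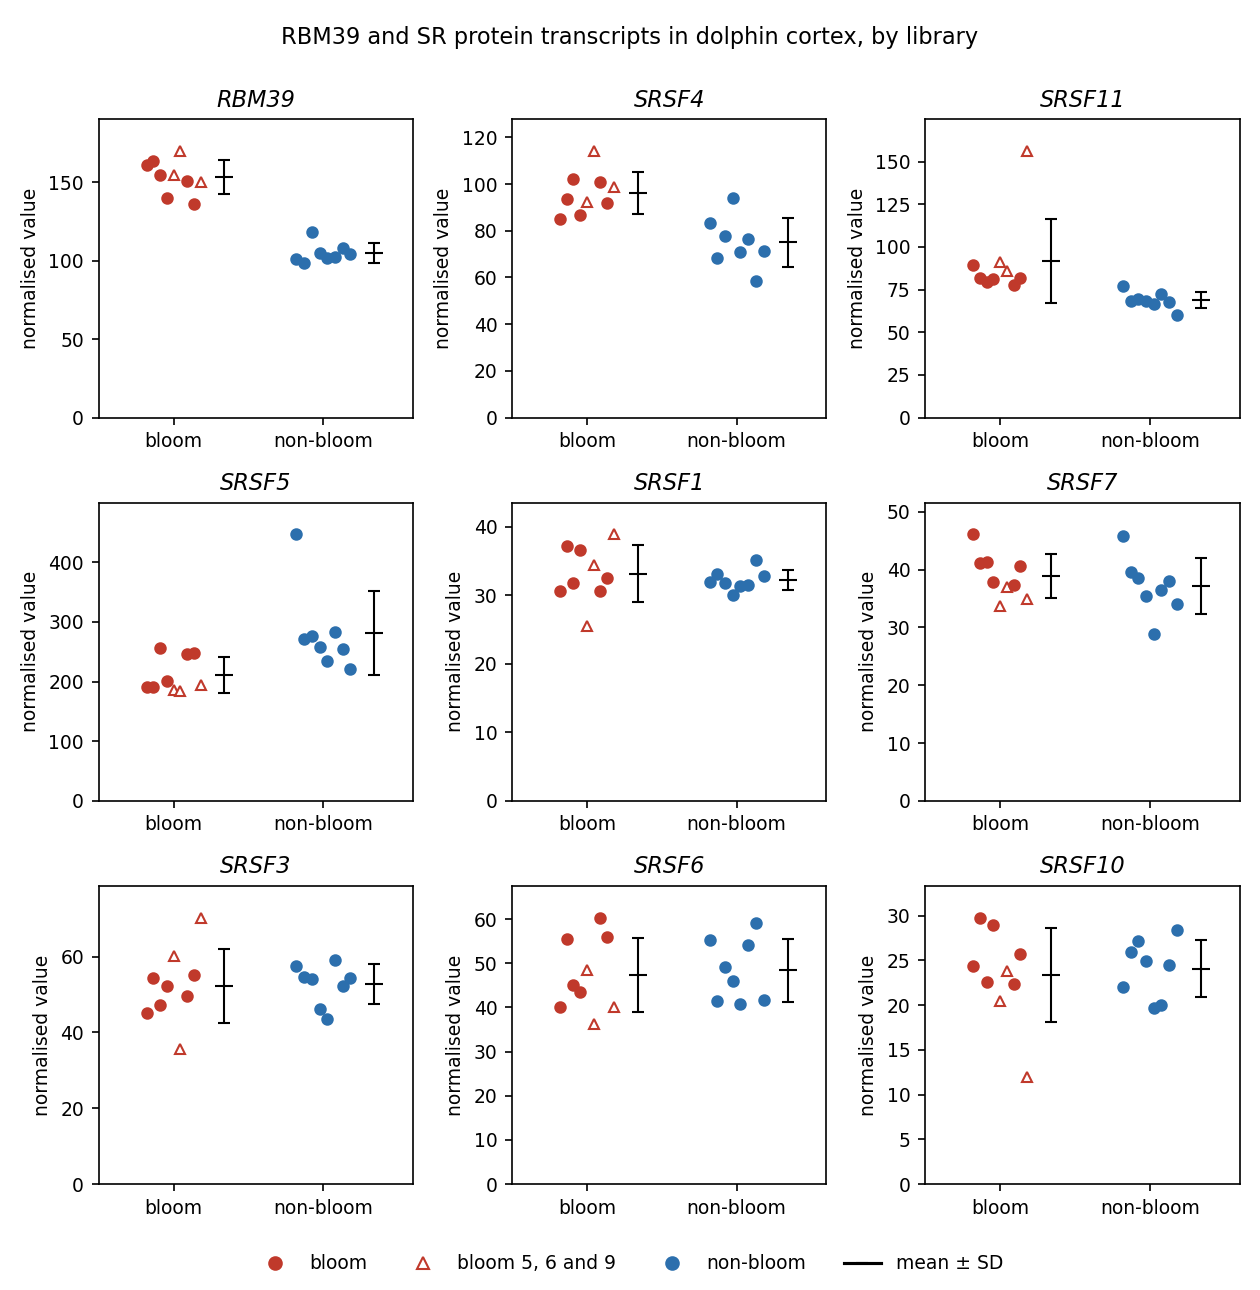
Normalised value (CPM on scaled library size, vertical axis from 0) of RBM39 and 8 SR genes in each library, with bloom on the left and non-bloom on the right of each panel; bars are the mean ± SD, and open triangles are bloom 5, 6 and 9. RBM39 and SRSF11 show no overlap between seasons, SRSF5 is lower in bloom with 1 non-bloom library at 446, and the lower 5 panels overlap throughout.

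RBM39 lies on GeneScaffold_3593 from base 507074 to 535725 in the coordinates of the files; their build was not named in any label or header. Its lowest, median and highest values were 136, 154 and 169.6 in bloom cortex, against 98.4, 103 and 118 in non-bloom cortex. Every bloom library lay above every non-bloom library. Means were 153 ± 10.7 in bloom (SD, n = 9) and 105 ± 6.16 in non-bloom dolphins (SD, n = 8), a ratio of 1.46 and a log2 difference of 0.54 (SE 0.085). Groups without overlap were found for 0.657% of all genes tested, 0.502% with bloom higher. Between 263 reads, in bloom 9, and 2648 reads stood behind each RBM39 value.

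The animals of a season differed little in RBM39. Its coefficient of variation was 7.01% in bloom and 5.88% in non-bloom libraries. Bloom 5, bloom 6 and bloom 9, whose libraries differ so much in mitochondrial share, had 155, 169.6 and 150.3, and the other 6 bloom libraries ran from 136 to 163. Without those 3 libraries the log2 difference was 0.52 (SE 0.079), in a fit that called 2.34% of all genes, 1.68% as higher in bloom. It stayed between 0.52 and 0.57 when each library was left out in turn. With the pan-neuronal marker level as a term it was 0.48 (SE 0.093) and with the oligodendrocyte marker level 0.53 (SE 0.11).

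SRSF4, SRSF5 and SRSF6 are closely related SR proteins with a pair of RNA recognition motifs each, and their season differences lay on both sides of 0. SRSF4 (GeneScaffold_937, 13982 to 39124) had a lowest, median and highest value of 84.9, 93.8 and 114 in bloom cortex, against 58.7, 73.8 and 94.1 in non-bloom cortex. All 9 bloom libraries were above the non-bloom median, and 4 were above the non-bloom maximum. The means were 96.1 ± 8.91 (SD, n = 9) and 75.1 ± 10.6 (SD, n = 8), with a log2 difference of 0.36 (SE 0.10). Without bloom 5, 6 and 9 it was 0.32 (SE 0.10), and 1 of the 9 genes, RBM39, passed in that fit. SRSF4 was past the threshold in the count above but not in 12 of the 17 fits that left out 1 library, those without non-bloom 1, 2, 3, 5, 6, 7 or 8 or bloom 2, 3, 5, 6 or 7, and not with CPM over reads outside the mitochondrial genome.

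SRSF5 ran the other way. On GeneScaffold_512 between 33719 and 37402, it had a lowest, median and highest value of 183, 194 and 257 in bloom cortex and of 221, 265 and 446 in non-bloom cortex. No bloom library reached the non-bloom median, and 6 of the 9 were below the non-bloom minimum. Mean SRSF5 was 211 ± 30.0 in bloom (SD, n = 9) and 281 ± 70.2 in non-bloom cortex (SD, n = 8), a log2 difference of -0.39 (SE 0.14). The upper end of the non-bloom group was 1 library. Non-bloom 1 had 446, and the other 7 lay between 221 and 282. Without it the difference was -0.29 (SE 0.11), and without bloom 5, 6 and 9 it was -0.31 (SE 0.14).

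SRSF6 (scaffold_90925, 3380 to 4639) had a lowest, median and highest value of 36.3, 45.0 and 60.3 in bloom and of 40.7, 47.6 and 59.1 in non-bloom cortex. The groups overlapped over nearly their whole range. The log2 difference was -0.040 (SE 0.13), and it was 0.045 (SE 0.12) without bloom 5, 6 and 9. The sign of a difference this small was therefore not stable.

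Because RBM39 and SRSF5 lay on opposite sides, their log2 ratio in each library is a compact way to show both. It ran from -0.86 to -0.11 in bloom cortex (mean -0.45 ± 0.27, SD, n = 9) and from -2.15 to -1.08 in non-bloom cortex (mean -1.39 ± 0.33, SD, n = 8). The seasons did not overlap in this ratio. Since the pair was picked for its season values, the separation is a description. The ratio compares libraries, and the height of the ratio itself says nothing about which gene is more abundant per length.

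**Figure D2:**
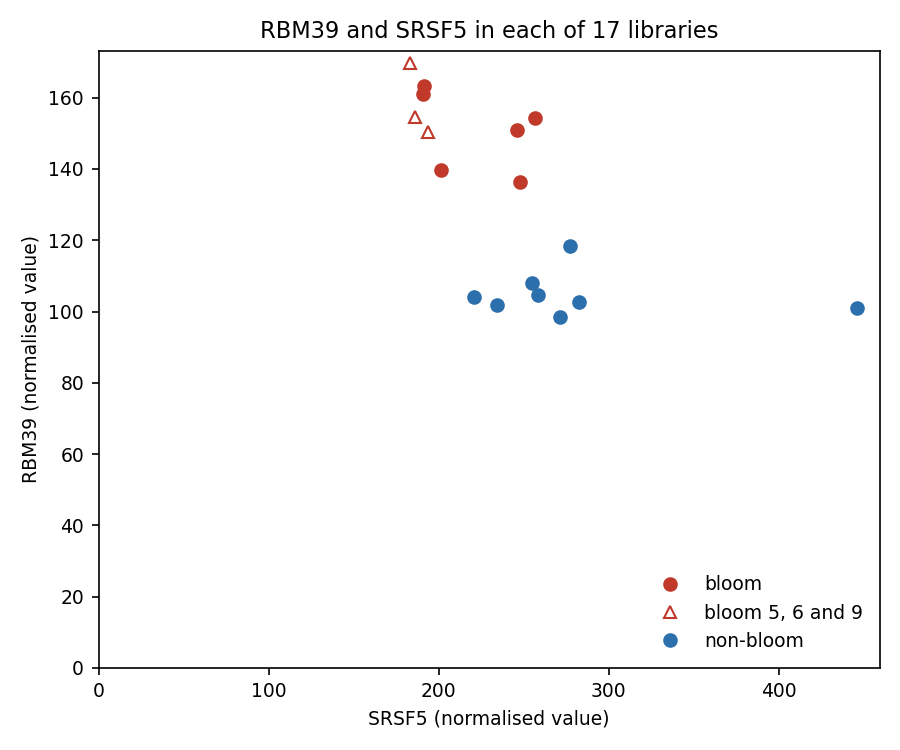
SRSF5 (horizontal axis) against RBM39 (vertical axis), both as normalised values, with 1 point for each of the 17 libraries; open triangles are bloom 5, 6 and 9. Bloom libraries sit at 136 or above on the RBM39 axis and non-bloom libraries at 118 or below, and 1 non-bloom library lies far to the right at an SRSF5 value of 446.

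SRSF1, SRSF3 and SRSF7 take part in splicing and also in the export of messenger RNA. SRSF1, named in the second name column alone (scaffold_103041, 51435 to 52551), had a lowest, median and highest value of 25.5, 32.5 and 38.9 in bloom and of 30.1, 31.8 and 35.1 in non-bloom cortex. Its mean was 33.1 ± 4.14 (SD, n = 9) in bloom and 32.2 ± 1.50 (SD, n = 8) in non-bloom cortex. The coefficient of variation was 12.5% in bloom and 4.65% in non-bloom libraries. Bloom 5 held the lowest and bloom 9 the highest value of all 17, from 128 and 68 reads, and without bloom 5, 6 and 9 it was 8.92% in the other 6. Whether the spreads differ was not tested.

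SRSF3 (scaffold_103123, 176224 to 180574) ran from 35.6 in bloom 6 to 70.3 in bloom 9 with a median of 52.3 in bloom cortex, and from 43.6 to 59.0 with a median of 54.3 in non-bloom cortex. Both ends of its range thus came from libraries that stood apart, while the other 6 bloom libraries lay between 45.0 and 55.1. SRSF7 (scaffold_115774, 172351 to 176427) had a lowest, median and highest value of 33.6, 37.9 and 46.1 in bloom and of 28.9, 37.3 and 45.8 in non-bloom cortex. The log2 differences were 0.031 (SE 0.099) for SRSF1, -0.029 (SE 0.12) for SRSF3 and 0.070 (SE 0.10) for SRSF7. With the oligodendrocyte marker level as a term those of SRSF1 and SRSF3 had the opposite sign, -0.014 (SE 0.13) and 0.17 (SE 0.14).

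SRSF10 and SRSF11 are SR factors outside the classical set. SRSF10 represses splicing when it is dephosphorylated, as after heat shock, and SRSF11 acts with neuronal factors on the inclusion of microexons. SRSF11 (GeneScaffold_97, 813710 to 854132) had a lowest, median and highest value of 77.9, 82.0 and 156 in bloom and of 60.4, 68.3 and 77.1 in non-bloom cortex. All 9 bloom values lay above all 8 non-bloom values, but by little: the lowest bloom value was 77.9 and the highest non-bloom value 77.1.

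The mean of SRSF11 rested in part on bloom 9. It was 91.7 ± 24.5 in bloom (SD, n = 9) and 68.8 ± 4.80 in non-bloom cortex (SD, n = 8), and bloom 9, at 156, was far above the other bloom libraries, which reached 91.0. The log2 difference was 0.38 (SE 0.13) with all libraries, 0.28 (SE 0.078) without bloom 9, and 0.25 (SE 0.078) without bloom 5, 6 and 9. The value of bloom 9 came from 273 reads, in the library with 1753299 reads outside the mitochondrial genome.

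SRSF10 (GeneScaffold_3621, 359305 to 367820) had its lowest value in that same library. It had a lowest, median and highest value of 12.0, 23.9 and 29.8 in bloom and of 19.7, 24.7 and 28.4 in non-bloom cortex. The 12.0 of bloom 9 came from 21 reads. Without bloom 5, 6 and 9 the other bloom libraries ran from 22.3 to 29.8, and the log2 difference was 0.089 (SE 0.11), against -0.068 (SE 0.15) with all 17.

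Animals of a season did not rank alike for all SR genes. Over the 36 pairs among the 9 genes, Pearson's r of log2(value + 1) across the 8 non-bloom libraries ran from -0.90, for SRSF1 and SRSF4, to 0.88, for SRSF5 and SRSF11, with a median of 0.23 and 24 pairs above 0. All pairs share the same 8 libraries and their scaling, so these values describe the libraries and are given with no p. SRSF5 and SRSF7 had an r of 0.81. Non-bloom 1 held the highest value of SRSF5, SRSF7 and SRSF11 among these 8 libraries, at 446, 45.8 and 77.1. The r of these pairs without it was not computed. SRSF10 and SRSF11 had -0.52.

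Whether the level of a gene followed the makeup of the library was asked inside each season, in the 8 non-bloom libraries and in the 6 bloom libraries other than bloom 5, 6 and 9. The measures were mitochondrial share, pan-neuronal marker level and oligodendrocyte marker level. Of the 54 relations computed for the 9 genes, 0 passed after adjustment (exact permutation test, two-sided, Benjamini-Hochberg over 54, lowest adjusted p = 0.308), while 5 had an unadjusted p under 0.05 for r and 3 for rho. The smallest p such a test can give is 0.00278 with 6 libraries and 4.96e-05 with 8. By Pearson's r the lowest p was that of SRSF5 with the mitochondrial share, with an r of 0.94 (exact permutation p = 0.0057) and a rho of 0.81 (exact permutation p = 0.0218) over 8 non-bloom libraries. Without the 2 libraries farthest from the median share r was 0.59, so the relation rested in part on them. SRSF11 and SRSF7 had an r of 0.77 and 0.76 with the same share (exact permutation p = 0.0419 and 0.0459) and a rho of 0.86 and 0.64 (exact permutation p = 0.0107 and 0.0962), and r was 0.48 and 0.39 without the 2 farthest libraries. SRSF4, among the 3 by rho, had a rho of 0.81 with that share (exact permutation p = 0.0218), an r of 0.60 (exact permutation p = 0.135) and an r of 0.81 without the 2 farthest libraries. SRSF3 and SRSF10 had an r of -0.74 and -0.69 with the oligodendrocyte marker level (exact permutation p = 0.0334 and 0.0498) and a rho of -0.64 and -0.69 (exact permutation p = 0.0962 and 0.0694), and r was -0.61 and -0.10 without the 2 farthest libraries. All of these were in non-bloom libraries.

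Over the 8 non-bloom libraries and 12375 genes with a symbol and a mean of at least 1, the genes most like RBM39 were ARHGAP22, TMPO, EPC2, TNXB and LPXN, with r from 0.94 to 0.97. In the 6 other bloom libraries the same genes had r of -0.38, 0.48, 0.39, -0.75 and -0.71 with RBM39, so 3 of the 5 had the opposite sign there. Those most like SRSF5 were COX1, which is a gene of the mitochondrial genome, SYCP2, PSMD6, GALNS and NUDCD1, with r from 0.92 to 0.96. Non-bloom 1 had both the highest SRSF5 and the highest mitochondrial share of these 8 libraries, 446 and 22.1%, and r without it was not computed. In the 6 other bloom libraries COX1 had an r of -0.018 with SRSF5, and the other 4 had r between 0.56 and 0.89. Those most like the mean z-score of the SR genes were YKT6, PIK3R6, LNPK, PCSK4 and ABHD12B, with r from 0.93 to 0.97. These are the highest of 12375 values of r over 8 libraries, and no p is given.

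Of the 11 lists of related genes, that of the kinases which act on SR proteins had the highest share of season calls. CLK1, CLK2, CLK3 and CLK4, the nuclear kinases that phosphorylate the arginine and serine tail, all rose in bloom cortex, and SRPK1, a cytoplasmic kinase, fell. The other SRPK genes did not pass and lay on both sides of 0: SRPK2 had 154 ± 40.1 in bloom and 209.5 ± 23.9 in non-bloom cortex (log2 difference -0.48, SE 0.16, adjusted p = 0.0557), and SRPK3 had 21.4 ± 6.72 and 14.0 ± 3.78 (0.55, SE 0.19, adjusted p = 0.0619). CLK1 to CLK4 and SRPK1 were 5 of the 10 tested genes on a list of SR protein kinases and import factors, 4 higher and 1 lower, which is 50% against 9.16% of all genes. SRPK1 was the fifth of the 5 by p and was named after its values were seen. The list was compiled with earlier results of these libraries known, and no test of the list as a whole was made.

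CLK1 had a lowest, median and highest value of 53.7, 120.6 and 158 in bloom and of 22.3, 50.2 and 74.2 in non-bloom cortex. All 9 bloom libraries lay above the non-bloom median and 8 above the non-bloom maximum, with bloom 9 as the exception. The mean was 122 ± 33.2 in bloom (SD, n = 9) and 49.9 ± 18.1 in non-bloom cortex (SD, n = 8), a ratio of 2.45 and a log2 difference of 1.31 (SE 0.24, adjusted p = 0.0125). CLK1 is known to keep part of its transcripts in the nucleus with introns unspliced, which totals for a gene do not separate.

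CLK4 had a lowest, median and highest value of 27.1, 30.9 and 41.2 in bloom and of 17.0, 19.3 and 24.9 in non-bloom cortex, with no overlap. Its means were 31.8 ± 4.04 and 19.8 ± 2.86, with a log2 difference of 0.66 (SE 0.11, adjusted p = 0.00816, n = 9 and 8, limma). CLK1 and CLK4 passed whichever library was left out, with an adjusted p of at most 0.0373 and 0.0294.

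CLK2 had 22.5 ± 2.96 in bloom and 14.4 ± 2.70 in non-bloom cortex, a log2 difference of 0.62 (SE 0.13, adjusted p = 0.0213, limma). It missed the threshold without non-bloom 2 and without non-bloom 8 (adjusted p = 0.0537 and 0.0520). CLK3 had 50.5 ± 16.3 and 31.2 ± 8.27, a log2 difference of 0.66 (SE 0.19, adjusted p = 0.0439). Bloom 5 and bloom 6 held its highest values, 69.7 and 84.0, and without bloom 5, 6 and 9 the difference was 0.51 (adjusted p = 0.0965). CLK3 missed the threshold in 11 of the 17 fits that left out 1 library (adjusted p from 0.0504 to 0.0891), without non-bloom 1, 2, 3, 6, 7 or 8 or bloom 2, 3, 5, 6 or 7.

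SRPK1 had a lowest, median and highest value of 15.6, 30.3 and 41.1 in bloom and of 32.0, 45.7 and 49.0 in non-bloom cortex. Its means were 29.2 ± 7.69 and 43.2 ± 6.93, with a log2 difference of -0.58 (SE 0.17, adjusted p = 0.0444, limma). Bloom 5 and bloom 6 held the lowest values, 19.9 and 15.6, and without bloom 5, 6 and 9 the difference was -0.38 (adjusted p = 0.103). It missed the threshold in 12 of the 17 fits that left out 1 library (adjusted p from 0.0503 to 0.0884), without non-bloom 1, 2, 3, 5, 6, 7 or 8 or bloom 2, 3, 5, 6 or 7.

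With a cell type marker level as a term hardly any gene of the whole table was called, 0.0221% with the pan-neuronal and 0.0443% with the oligodendrocyte level, and the kinases were not among them. With the pan-neuronal level the log2 difference was 1.18 (SE 0.29) for CLK1, 0.53 (SE 0.15) for CLK2, 0.31 (SE 0.18) for CLK3, 0.61 (SE 0.13) for CLK4 and -0.24 (SE 0.15) for SRPK1, with adjusted p between 0.137 and 0.693. With the oligodendrocyte level CLK1 had 1.04 (SE 0.29) and CLK4 0.53 (SE 0.14), with adjusted p of 0.0977 and 0.0975. With the ratio of mitochondrial to other reads as a term, all 5 passed, in a fit that called 18.6% of all genes.

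**Figure D3:**
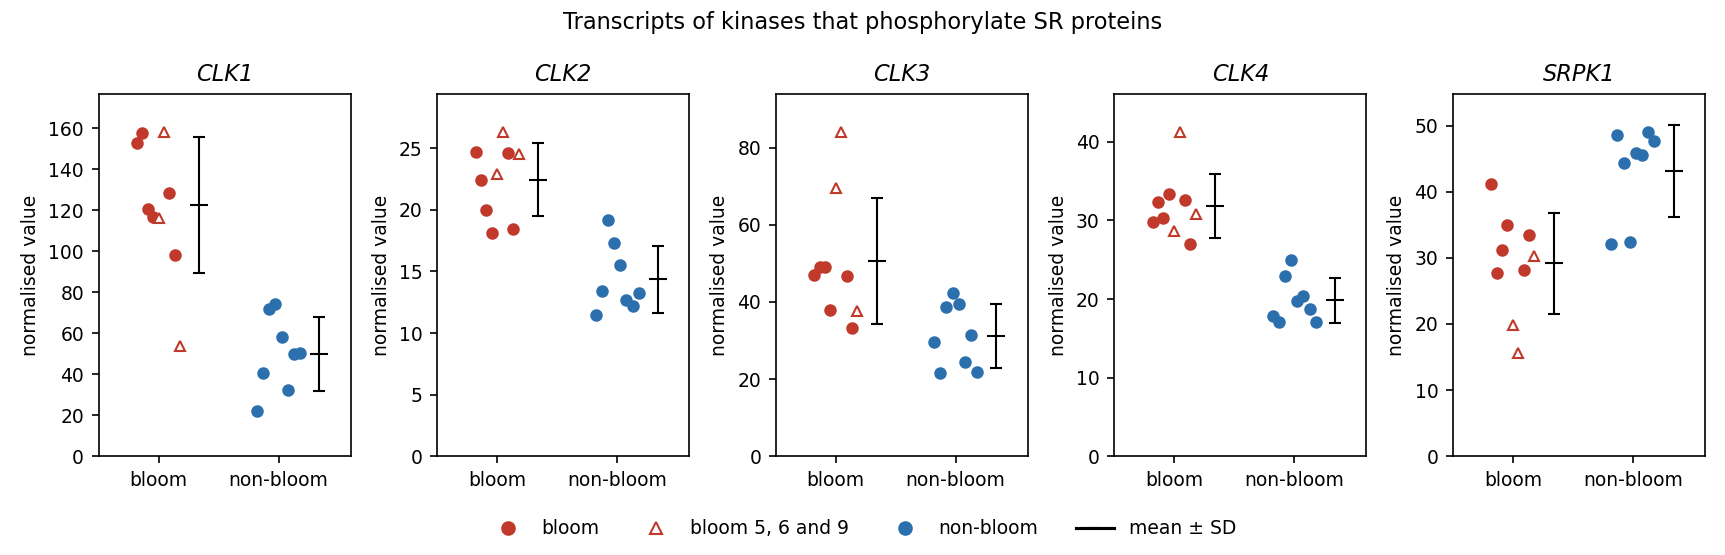
Normalised value (vertical axis from 0) of CLK1, CLK2, CLK3, CLK4 and SRPK1 in each library, bloom on the left and non-bloom on the right, with the mean ± SD; open triangles are bloom 5, 6 and 9. CLK4 shows no overlap between seasons, CLK1 overlaps through bloom 9 alone, and in CLK3 and SRPK1 the extreme bloom values are those of bloom 5 and 6.

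**Figure D4:**
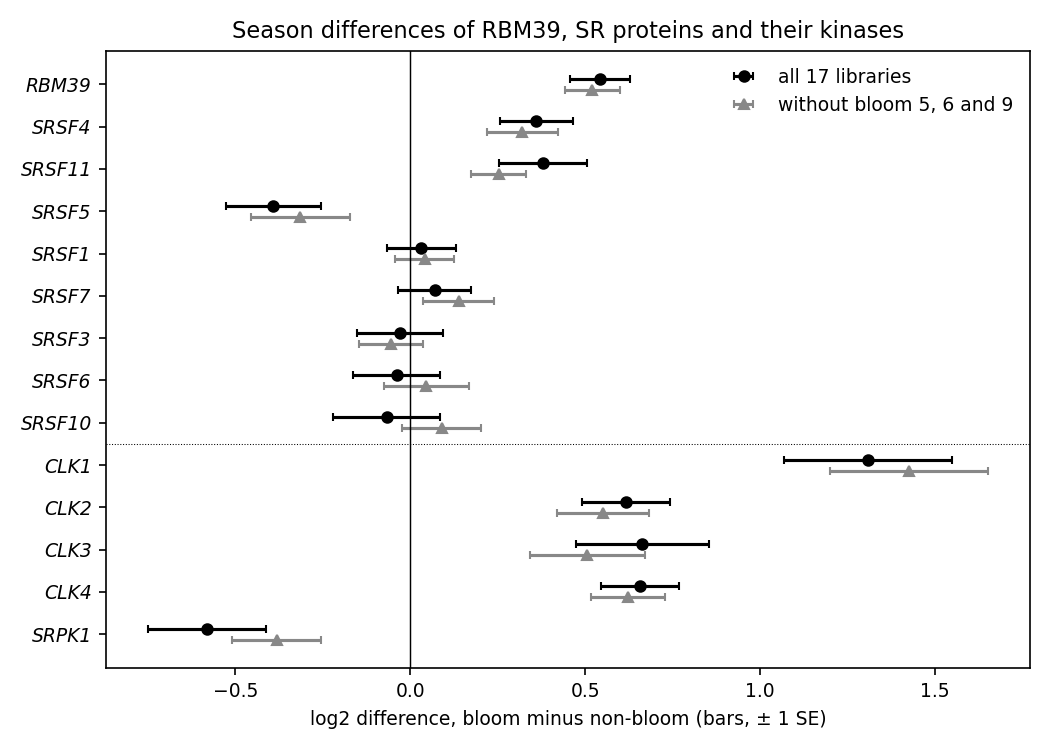
Log2 difference between seasons (bloom minus non-bloom, bars ± 1 SE) of RBM39, 8 SR genes and 5 kinases, with all 17 libraries (black circles) and without bloom 5, 6 and 9 (grey triangles). RBM39, at 0.54 and 0.52, and CLK1, at 1.31 and 1.43, changed little between these fits, while 5 SR genes lie close to 0 in both.

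Among 16 other SR and SR-like genes tested, 1 rose and 0 fell. PNN, which encodes pinin of the nuclear speckles, had 74.3 ± 15.3 in bloom and 50.4 ± 5.38 in non-bloom cortex, a log2 difference of 0.54 (SE 0.12, adjusted p = 0.0291, limma), with no overlap between groups. Bloom 5 and bloom 9 held its highest values, 102 and 97.7. It missed the threshold without non-bloom 2, 6 or 8 or bloom 6 (adjusted p from 0.0527 to 0.0643). SREK1 had the largest difference of the list, 1.24 (SE 0.39, adjusted p = 0.0520, limma), and missed the threshold. Its bloom values ran from 29.4 to 386 with a median of 38.2, and its non-bloom values from 19.5 to 31.1. SREK1 passed in edgeR (adjusted p = 0.0334) and in limma without bloom 5, 6 and 9 (0.55, adjusted p = 0.0298). TRA2A and TRA2B, which bind exonic enhancers, did not pass, with log2 differences of 0.31 (SE 0.12, adjusted p = 0.0896) and -0.097 (SE 0.11, adjusted p = 0.515). In this list 6 genes had an unadjusted p under 0.05, all higher in bloom. That share was not counted over all genes, of which 3645 of 13552 had an adjusted p under 0.1, so nothing is read from the 6.

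Among 10 genes of U2AF and partners of RBM39, 1 rose and 1 fell. ZRSR2, which recognises the 3′ splice site of minor introns, had 20.3 ± 4.95 in bloom and 12.3 ± 2.65 in non-bloom cortex, a log2 difference of 0.67 (SE 0.16, adjusted p = 0.0296). UHMK1, the kinase that phosphorylates SF1, had 13.1 ± 4.91 and 25.5 ± 8.57, a log2 difference of -0.92 (SE 0.22, adjusted p = 0.0304). Neither passed without bloom 5, 6 and 9 (adjusted p = 0.0579 and 0.0854), with log2 differences of 0.55 and -0.69. ZRSR2 missed the threshold without non-bloom 2, 6, 7 or 8, and UHMK1 also without bloom 5, 6 or 7 (adjusted p from 0.0511 to 0.0686). Genes of this list that did not pass include RBM23, a close relative of RBM39, with 43.7 ± 8.08 in bloom and 49.2 ± 9.10 in non-bloom cortex (log2 difference -0.17, SE 0.13), and DCAF15, with 15.2 ± 3.36 and 13.4 ± 1.89 (0.16, SE 0.14).

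Among 10 genes of the U1 particle and its LUC7-like partners, 2 rose and 0 fell. SNRNP70, the U1 protein that SR tails contact, had 202 ± 55.4 in bloom and 129.8 ± 19.9 in non-bloom cortex, a log2 difference of 0.61 (SE 0.15, adjusted p = 0.0300), with no overlap between groups. LUC7L had 80.8 ± 29.4 and 46.4 ± 7.36, a log2 difference of 0.73 (SE 0.18, adjusted p = 0.0308). Both had their highest value in bloom 9, and without bloom 5, 6 and 9 the differences were 0.43 and 0.46 (adjusted p = 0.0430 and 0.0435). SNRNP70 missed the threshold without non-bloom 2, 6, 7 or 8 or bloom 6 or 7, and LUC7L also without non-bloom 1 (adjusted p from 0.0507 to 0.0686). LUC7L3 had the largest difference of the list, 1.14 (SE 0.37, adjusted p = 0.0550, limma), and missed the threshold. It passed in edgeR (adjusted p = 0.0364), in DESeq2, with voom weights and with the mitochondrial ratio as a term. Of the fits that left out 1 library, it passed only in those without bloom 1, 4, 8 or 9. Its highest value was 1274, in bloom 9, and without bloom 5, 6 and 9 the difference was 0.52 (adjusted p = 0.0591, limma).

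Counts in the remaining lists of splicing particles and RNA decay stand beside 9.16% of all genes called, a share that comes to few genes in lists of this size. The share of all genes with an unadjusted p under 0.05 was not counted. Of 13 genes of the U2 particle and the SF3 complexes, 0 passed in limma and 0 in edgeR, and 0 had an unadjusted p under 0.05. Of 6 Sm proteins, 0 passed in either tool and 2 had an unadjusted p under 0.05. Of 10 factors of nonsense-mediated decay, 0 passed in either tool and 1, SMG6, had an unadjusted p under 0.05. SMG6, the endonuclease of that pathway, had 30.2 ± 5.78 in bloom and 24.8 ± 2.74 in non-bloom cortex (log2 difference 0.26, SE 0.12, adjusted p = 0.136). SNRPB2 of the U2 particle had a log2 difference of 0.45 (SE 0.29, adjusted p = 0.252) and SNRPF of the Sm ring 0.64 (SE 0.25, adjusted p = 0.0858). Without bloom 5, 6 and 9 the difference was 0.14 for SMG6, 0.019 for SNRPB2 and 0.26 for SNRPF (adjusted p = 0.463, 0.950 and 0.416, limma).

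Of 13 proteins of the tri-snRNP 1 rose: PRPF3, of the U4/U6 particle, with 35.6 ± 4.30 in bloom and 24.7 ± 3.38 in non-bloom cortex and no overlap between groups. Its log2 difference was 0.52 (SE 0.11, adjusted p = 0.0238, limma), and it missed the threshold without non-bloom 6 and without non-bloom 8 (adjusted p = 0.0528 and 0.0542).

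Splicing regulators that often oppose SR proteins were also mixed. Of 18 hnRNP genes tested, HNRNPH3 rose and HNRNPH2 fell, 2 members of the same subfamily that binds runs of G. The names HNRNPF and HNRNPH1 both led to the same row, which did not pass (log2 difference 0.13, SE 0.099, adjusted p = 0.357, limma). HNRNPH3 had 229 ± 72.3 in bloom and 122 ± 39.9 in non-bloom cortex (log2 difference 0.91, SE 0.22, adjusted p = 0.0305), and HNRNPH2 had 131 ± 35.1 and 192 ± 19.5 (-0.59, SE 0.16, adjusted p = 0.0365). Reads of such near relatives may be split between them in ways the counting decides. Neither passed without bloom 5, 6 and 9, at 0.65 and -0.37 (adjusted p = 0.0854 and 0.0696), and both missed the threshold without non-bloom 2, 6, 7 or 8 or bloom 2, 5, 6 or 7, HNRNPH2 also without non-bloom 1 or 3.

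Of 20 splicing regulators of neural tissue, 0 rose and 2 fell, CELF2 and MBNL1. CELF2 had 42.6 ± 14.6 in bloom and 71.6 ± 11.4 in non-bloom cortex (log2 difference -0.80, SE 0.20, adjusted p = 0.0315), and MBNL1 had 41.0 ± 12.7 and 60.6 ± 7.87 (-0.61, SE 0.18, adjusted p = 0.0443). The differences of 17 of the 20 were below 0, with a median of -0.48, beside a median of -0.0034 over all genes. The list shares RBFOX3 and ELAVL4 with the pan-neuronal markers, whose differences were below 0 in 11 of 11, with a median of -0.68. Without bloom 5, 6 and 9 the medians were -0.21 for the list, -0.35 for those markers and 0.011 over all genes. Neither CELF2 nor MBNL1 passed without bloom 5, 6 and 9 (adjusted p = 0.0593 and 0.0655), and edgeR did not call MBNL1 (adjusted p = 0.0512). CELF2 missed the threshold without non-bloom 1, 2, 6, 7 or 8 or bloom 2, 6 or 7, and MBNL1 without any 1 of the 8 non-bloom libraries or bloom 2, 5, 6 or 7.

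Of 25 other tested genes with an RBM number, RBM4 and RBM14 rose and RBM18 fell. RBM4, which regulates alternative splicing in muscle and neurons, had 62.4 ± 7.58 in bloom and 43.7 ± 10.8 in non-bloom cortex (log2 difference 0.53, SE 0.14, adjusted p = 0.0365). RBM14, a paraspeckle protein, had 36.5 ± 7.57 and 25.6 ± 3.01 (0.47, SE 0.13, adjusted p = 0.0422). RBM18 had 8.20 ± 2.76 and 13.4 ± 1.75 (-0.71, SE 0.19, adjusted p = 0.0376). Of the 25, 15 had differences above 0 and 10 below, with a median of 0.050. Without bloom 5, 6 and 9 RBM14 passed (adjusted p = 0.0358) and RBM4 and RBM18 did not (adjusted p = 0.0771 and 0.0685). RBM4 missed the threshold without non-bloom 1, 2, 5, 6, 7 or 8 or bloom 2, 5, 6 or 7, and RBM14 and RBM18 also without non-bloom 3.

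Over all lists, 151 related genes were tested, of which 12 rose and 6 fell, or 11.9% beside 9.16% of all genes. In edgeR 14 rose and 5 fell, in a fit that called 6.10% of all genes as higher and 2.19% as lower in bloom. Without bloom 5, 6 and 9 in limma 11 rose and 0 fell, beside 1.68% and 0.659% of all genes. With the pan-neuronal or the oligodendrocyte marker level as a term, 0 passed in limma, in fits that called 3 and 6 of all 13552 genes. In those fits 22 and 45 of the related genes had an unadjusted p under 0.05. The share of all genes at that unadjusted threshold was not counted, so nothing is read from the 22 and 45. The part of cell makeup in the season calls was not otherwise tested.

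**Figure D5:**
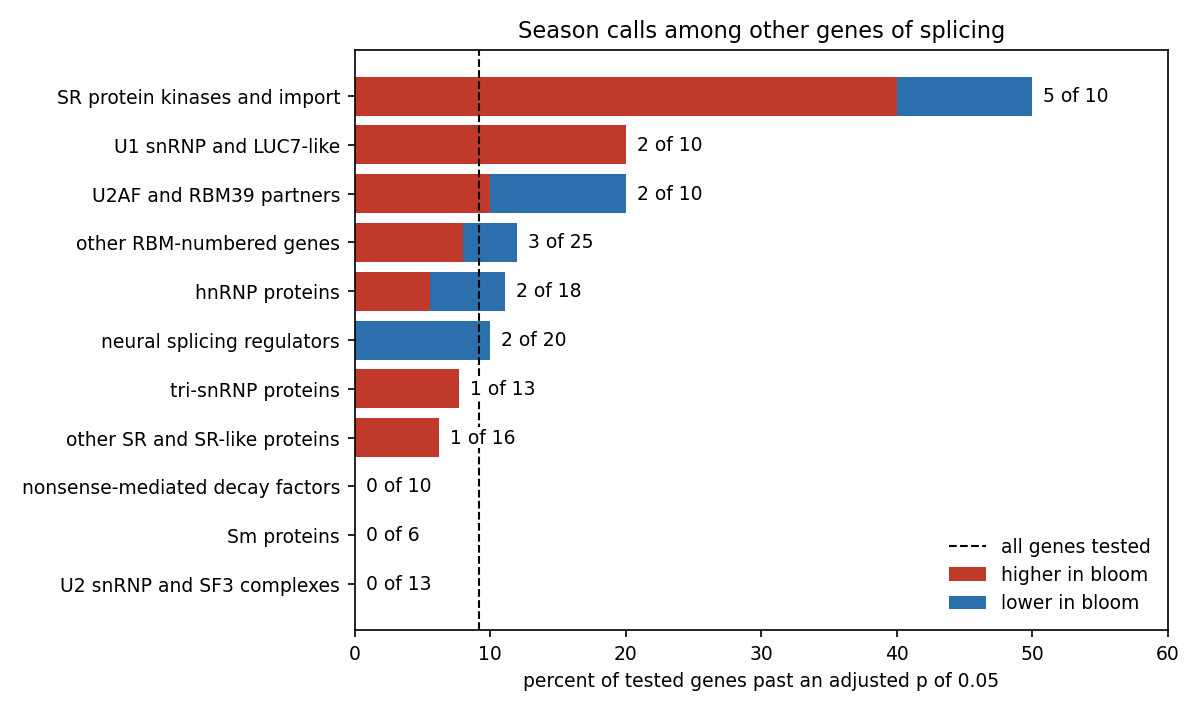
Percent of the tested genes of 11 lists that passed an adjusted p of 0.05 between seasons (horizontal axis; red higher in bloom, blue lower in bloom, counts beside the bars), with the dashed line at the 9.16% of all genes called. The kinase list stands at 50%, and 3 lists have a count of 0.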

How the data were processed

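The authors deposited a normalised signal for each gene in each library. Per the submitters' processing notes, the tools included Trim Galore 0.6.1 and STAR 2.5.2a. No source used here names the counting tool, strand setting, build or annotation. Every deposited value was a whole multiple of that of 1 read in its library (100% within 0.01 reads), and the divisors matched library sizes scaled by the trimmed mean of M values to within 3.61e-06. Recovered reads gave the depth; 3 reads, the floor, equal 0.158 to 1.71. Such counting limits cover counting error only.

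Genes were filtered by filterByExpr (minimum count 10, minimum total 15). The test was limma-trend (log2 of the value with a pseudocount of 1), with Benjamini-Hochberg adjustment over 13552 genes; a fold on this scale understates changes of low genes. Adjusted p under 0.05 counted as passing. p-values measure the spread between dolphins. R 4.3.3, limma 3.58.1, edgeR 4.0.16 and DESeq2 1.42.0 were used. On simulated data for this comparison (200 changed genes among 13675), the test recovered 49.5% of the 99 genes set to a log2 change of 1 and 100% of the 100 set to 2, and 11 of its 160 calls were false.

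The genes and lists were chosen with earlier results of these data known. Named genes are the 9 members, up to 4 passing genes per list (or the 1 with the smallest p), and the 5 genes most alike in non-bloom libraries. SRPK1 was named beyond that rule, as were SRPK2, SRPK3, RBM23, DCAF15, TRA2A, TRA2B, SREK1, LUC7L3, HNRNPF and HNRNPH1, which did not pass in the limma fit of all 17 libraries. Alternatives were edgeR, DESeq2, other scalings, filters, a pseudocount of 0.1, voom weights, robust variance, covariates, other thresholds and leaving out libraries.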

Additional observations from a re-analysis of the deposited data

Results flagged for a closer look

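Among 60 groups of 8 or 9 values checked, 5 had a library far from the others of its season by Dixon's criterion, and chance alone flags about 1 in 20. The check covered the 9 members, the related genes named by the naming rule above, and SRPK1. The other genes named beyond that rule were not checked. SRSF5 in non-bloom 1 had 446.4, and the other 7 non-bloom libraries had 220.7 to 282.4. SRSF11 in bloom 9 had 156, and the other 8 bloom libraries 77.86 to 90.96. CLK4 in bloom 6 had 41.19, beside 27.05 to 33.38. SNRNP70 in bloom 9 had 337.7, beside 162.5 to 222.7, and SNRPB2 in bloom 9 had 224.6, beside 36.03 to 80.61. Of the 5, 3 were in bloom 9, which has the fewest reads outside the mitochondrial genome. LUC7L3, which was not checked, had 1274 in bloom 9, beside 116 to 396 in the other 8 bloom libraries.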

How the results depend on the processing

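The log2 difference of RBM39 lay between 0.48 and 0.58 in all settings tried, as a description. The number of genes past the threshold, 1241, was 3173 with DESeq2, 547 with CPM over reads not from the mitochondrial genome, 560 without a low-value filter, 4124 with voom weights, 3 and 6 with the pan-neuronal and oligodendrocyte levels, 2518 with the mitochondrial ratio, 320 without bloom 5, 6 and 9, and 3645 at an adjusted p under 0.1. In the same order without the filter, the 2 calls among the 9 genes were 4, 1, 3, 0, 0, 3, 1 and 4, and the 18 among related genes were 36, 11, 44, 0, 0, 28, 11 and 40. With the 2 marker levels 3 of the 9 genes had an unadjusted p under 0.05 in limma, and the share of all genes there was not counted. Leaving out 1 library gave 61 (without non-bloom 2) to 2895 genes (without bloom 1), 1 to 4 of the 9 and 2 (without non-bloom 8) to 35 related genes (without bloom 1). The causes were not tested. Genes higher in bloom made up 48.8% of calls, and 73.6% in edgeR, 61.3% in DESeq2, 70.2% with non-mitochondrial CPM, 59.3% without a filter and 71.9% without bloom 5, 6 and 9. Over all 17 libraries, taken as deviations from the mean of each season, the median r between pairs of the 9 genes was -0.0018, and 0.29 with non-mitochondrial CPM. No paired analysis was possible because each library comes from its own dolphin and the labels carry no shared replicate number. Depth limits low values: SRSF10 had the fewest reads among the 9 genes, 21 in bloom 9, and among the related genes named UHMK1 and RBM18 went down to 18 and 6.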
